A study of Mus musculus with 14 samples.

Results

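Transcripts of the EGF family ligands and the ERBB receptors were described in bulk RNA-Seq of mouse esophagus. The members were the 10 rows whose gene symbol was Egf, Tgfa, Areg, Ereg, Hbegf, Btc, Egfr, Erbb2, Erbb3 or Erbb4, out of 55291 symbols in the count tables. They comprise 6 ligands and 4 receptors, and all 10 were present in every table.

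ERBB receptors are receptor tyrosine kinases that span the membrane. EGF, TGF-alpha, amphiregulin, epiregulin, HB-EGF and betacellulin are made as membrane-bound precursors, are cut loose by metalloproteases such as ADAM17, and bind EGFR, and some of them bind ERBB4. ERBB2 has no known ligand and ERBB3 has little kinase activity, so both act mainly as partners in receptor pairs. In stratified squamous epithelia such as the esophagus, this signaling is best known for keratinocyte proliferation and repair, whereas neuregulins acting on ERBB2, ERBB3 and ERBB4 are best known in Schwann cells and muscle.

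The samples came from 9 C57BL/6 mice without any labelled transgene or treatment. Esophagi were peeled into an epithelial sheet and the tissue removed from it, which the labels call stroma. Epithelium was sequenced from 5 aged mice (O1, O2, O3, OF5 and OM8) and 4 young mice (Y1, Y3, YF5 and YM4). Stroma was also sequenced from O1, O2, O3, Y1 and Y3, so that 5 mice, 3 aged and 2 young, gave both layers. Aged mice were at least 18 months old and young mice at most 4 months old by the labels. Sex is labelled for only some of the mice and was not used.

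The positions of the members in GRCm38 were taken from GENCODE M21. Ereg (chromosome 5, 91074622 to 91093646), Areg (chromosome 5, 91139599 to 91148432) and Btc (chromosome 5, 91357261 to 91402994) lie beside Epgn, another EGFR ligand gene, and these 4 are the only protein-coding genes in a span of 375.5 kb. The distance is 45952 bases from Ereg to Areg and 208828 bases from Areg to Btc. Egf lies on chromosome 3 (129677565 to 129755316) and Tgfa on chromosome 6 (86195223 to 86275719). Egfr (16752203 to 16918158) and Erbb2 (98412470 to 98437716) are both on chromosome 11. Erbb3 is on chromosome 10 (128567523 to 128589652), and Erbb4 on chromosome 1 (68032186 to 69108059).

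The 100 bases before the annotated transcription start are shown for a ligand higher in epithelium (Tgfa), a ligand higher in stroma (Egf), a ligand from the chromosome 5 cluster (Areg) and both receptors on chromosome 11, so that starts of genes with opposite layer patterns can be set side by side. They were read from the RefSeq promoters of GRCm38.p6, in which 7 of the 10 members had an entry. Ereg, Hbegf and Erbb3 had none. Capitals mark matches, on either strand, to 5 short motifs: the TATA box as TATAAA, the GC box bound by SP1-like factors as GGGCGG, the CAAT box as CCAAT, the AP-1 site as TGANTCA and the palindromic cAMP response element as TGACGTCA.
Tgfa (chr6:86195122-86195221, plus strand): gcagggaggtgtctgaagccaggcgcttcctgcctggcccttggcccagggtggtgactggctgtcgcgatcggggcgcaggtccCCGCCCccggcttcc
Egf (chr3:129755323-129755422, minus strand): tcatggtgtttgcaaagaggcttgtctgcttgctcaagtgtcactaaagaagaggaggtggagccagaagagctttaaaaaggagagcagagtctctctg
Areg (chr5:91139499-91139598, plus strand): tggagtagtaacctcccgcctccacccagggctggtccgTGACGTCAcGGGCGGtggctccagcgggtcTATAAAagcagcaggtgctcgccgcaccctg
Egfr (chr11:16752103-16752202, plus strand): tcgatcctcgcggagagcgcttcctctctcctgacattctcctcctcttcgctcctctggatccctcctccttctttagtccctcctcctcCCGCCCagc
Erbb2 (chr11:98412384-98412483, plus strand): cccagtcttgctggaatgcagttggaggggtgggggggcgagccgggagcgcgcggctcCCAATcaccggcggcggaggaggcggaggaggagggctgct

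Areg held 3 of these motifs. Its TATA box began 31 bases before the start, its GC box 52 bases before it and its cAMP response element 61 bases before it. Tgfa and Egfr each held a GC box on the opposite strand, and Erbb2 held a CAAT box 41 bases before its start. Egf, Btc and Erbb4 held none of the 5 in this window. Of 32851 promoter windows of the same length, 5.6% held the TATA box, 24.7% the GC box, 18.9% the CAAT box, 2.7% the AP-1 site and 1.2% the cAMP response element. The motifs do not contain one another. The window of Egf had 47% G and C, against 73% for both Tgfa and Erbb2 and a mean of 55.6% over all windows.

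Total counts per sample ranged from 16477424 to 21867101 in epithelium of the 5 mice with both layers, from 8217516 to 9399448 in epithelium of the other 4 mice and from 13257833 to 15644580 in stroma. The 4 mice with epithelium only stood apart, because 63.9% to 73.9% of their counts fell on CT010467.1, a ribosomal RNA gene, and 1042388 to 1433837 counts were left on protein-coding genes. Levels are given as normalized counts, which are CPM values scaled by TMM. A gene with 3 counts had a normalized count of 0.0872 to 0.175 in the deeper libraries and of 0.707 to 1.25 in those 4. In the check of the layers, 8 keratinocyte markers summed to 16930 to 53630 in epithelium and to 46.6 to 450.3 in stroma. Skeletal muscle had the highest level of the marker lists in stroma, where its 8 genes summed to 35000 to 64730, against 8.96 to 1489 in epithelium. Smooth muscle, fibroblast, endothelial, Schwann cell, macrophage, mast cell and adipocyte markers were detected in stroma, T cell and thyroid markers at low levels. The epithelial sheet also held some of them. Fibroblast markers summed to 280.5 to 632.5 in epithelium and 415.2 to 1031 in stroma, and smooth muscle markers to 333.4 to 835.0 and 302.6 to 2051. Macrophage, mast cell and T cell sums overlapped between the layers too, while endothelial, Schwann cell, adipocyte and thyroid sums did not.

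The comparison of epithelium with stroma asked which layer carries each ligand and receptor transcript. Tgfa, Ereg, Hbegf, Btc, Egfr, Erbb2 and Erbb3 were higher in epithelium, Egf and Erbb4 were higher in stroma, and Areg did not pass the test. Thus 9 of the 10 members were called at an adjusted p under 0.05, 7 higher and 2 lower, where 56.2% of the 16791 genes tested were called, 26.1% higher and 30.1% lower in epithelium. The median log2 fold change of epithelium over stroma was 2.91 for the members and -0.05 for all genes tested. All samples of one layer lay above all samples of the other for 8 of the members, against 31.3% of all genes. In bulk tissue, fewer cells of a type and less RNA per cell cannot be told apart, and the layers differ in many cell types.

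**Figure D1:**
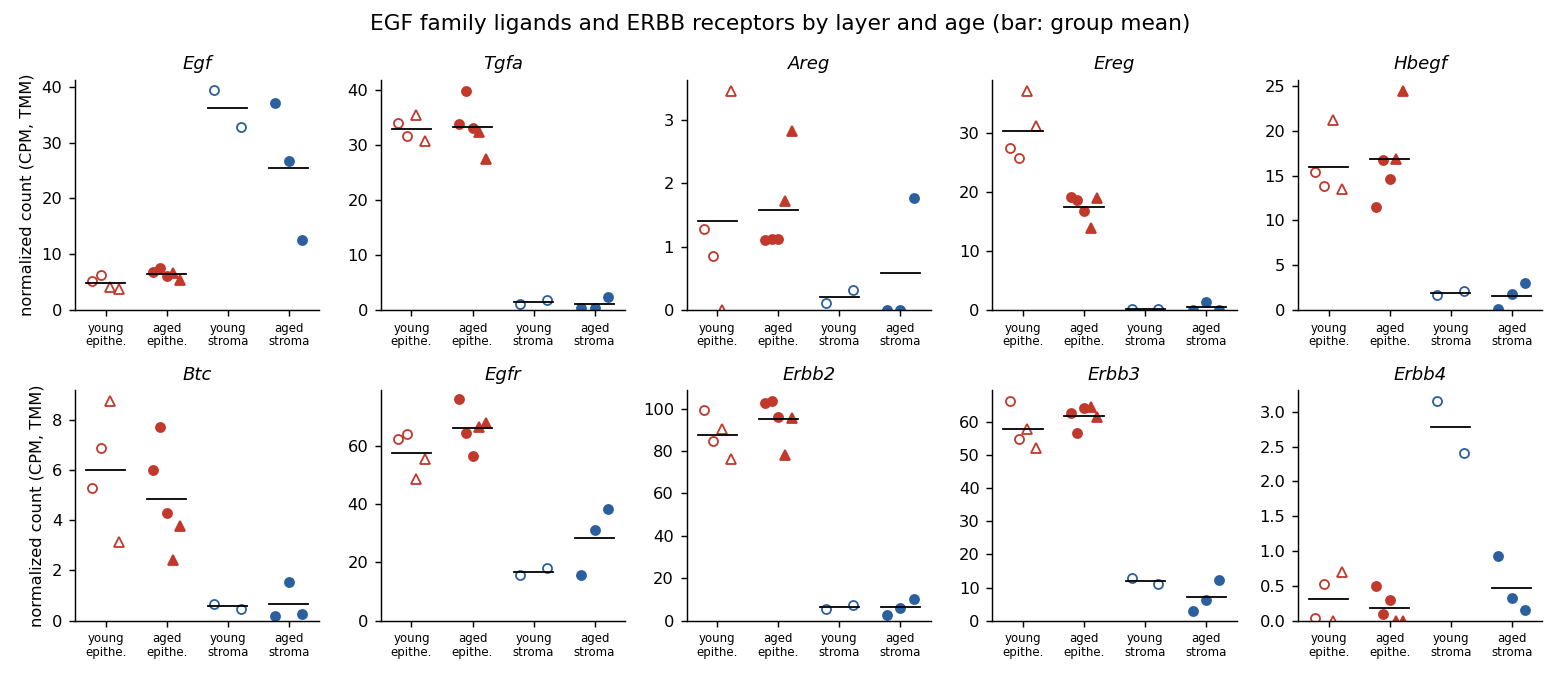
Normalized counts (linear axes from 0) of the 10 members in each of the 14 samples. Open symbols are young mice and filled symbols aged mice, circles are the 5 mice with both layers, triangles the 4 mice with epithelium only, and bars are group means. Egf is higher in every stromal sample (12.6 or more) than in every epithelial one (7.57 or less), and Ereg is lower in every aged than in every young epithelium.

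Among the ligands, epiregulin had the largest layer difference. Ereg ranged from 13.8 to 37.1 normalized counts in epithelium (median 19.1, n = 9). In stroma it was 0 in O1, 1.36 in O2, 0 in O3, 0.155 in Y1 and 0.0788 in Y3. The stromal values rest on 0, 33, 0, 3 and 2 counts, so that O2 stood apart from 4 samples at or under 3 counts. The log2 fold change was 6.09 ± 0.71 (SE; adjusted p = 2.16e-06), and 8.51 ± 0.53 without mouse O2. The stroma of O2 also had the highest sum of keratinocyte markers, 450.3 against 46.6 to 224.3 in the other stromal samples, and their part in its Ereg value was not tested.

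Tgfa, a ligand that keratinocytes are known to make, ranged from 27.6 to 39.95 normalized counts in epithelium (median 33.2). It was 0.292, 0.411 and 2.37 in the stroma of O1, O2 and O3, and 1.08 and 1.77 in that of Y1 and Y3. Every stromal sample lay below every epithelial one, and the log2 fold change was 4.77 ± 0.36 (adjusted p = 1.1e-09). Within the 5 mice with both layers, stromal Tgfa was 0.863% to 7.15% of the epithelial level.

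Hbegf (chromosome 18, 36504927 to 36515805) encodes heparin-binding EGF. It ranged from 11.5 to 24.5 normalized counts in epithelium (median 15.4) and was 0.0583, 1.73, 3.02, 1.70 and 2.13 in the stroma of O1, O2, O3, Y1 and Y3. Btc, betacellulin, which binds both EGFR and ERBB4, ranged from 2.41 to 8.75 in epithelium (median 5.28) and was 0.175, 1.52, 0.268, 0.671 and 0.473 in the same stromal samples. Neither gene overlapped between the layers. Epithelium over stroma gave a log2 fold change of 3.21 ± 0.42 for Hbegf (adjusted p = 2.59e-06) and 3.10 ± 0.47 for Btc (adjusted p = 1.22e-05).

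Egf itself showed the opposite layer pattern. It ranged from 3.81 to 7.57 normalized counts in epithelium (median 6.17). It was 37.2, 26.8 and 12.6 in the stroma of O1, O2 and O3, and 39.5 and 32.9 in that of Y1 and Y3. Every stromal sample exceeded every epithelial sample, and in each of the 5 mice the stromal level was 204% to 754% of the epithelial one. Its log2 fold change was -2.33 ± 0.22 (adjusted p = 2.44e-08), or 5.02-fold higher in stroma. All 8 skeletal muscle, all 4 Schwann cell and all 4 adipocyte markers were also called higher in stroma, and their part in the level of Egf was not tested. Egf overlaps 2 antisense gene models, 6330410L21Rik and Gm42697, with stromal medians of 1.22 and 0.534 normalized counts, and without a stated strand setting their reads cannot be told apart from those of Egf.

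Areg, which encodes amphiregulin, was low in both layers. In epithelium it had 26 to 38 counts in the 5 mice with both layers and 0 to 12 counts in the other 4. In epithelium it ranged from 0 in YF5 to 3.46 in YM4, with a median of 1.12. In stroma it was 0 in O1 and O2, 1.76 in O3, 0.103 in Y1 and 0.315 in Y3, from 0, 0, 46, 2 and 8 counts. The groups overlapped at both ends, since YF5 was at 0 and the stroma of O3 was above most epithelial samples. O3 was the only mouse with both layers in which stromal Areg was above the epithelial level. The log2 fold change was 1.69 ± 0.91 (adjusted p = 0.12), and 3.69 ± 0.95 without O3 (adjusted p = 0.00293). The stroma of O3 also had the highest summed levels of T cell markers (8.72 against 0.933 to 3.78 in the other stromal samples), macrophage markers (78.7 against 24.3 to 50.7), endothelial markers (77.4 against 22.6 to 65.0) and fibroblast markers (1031 against 415.2 to 873.3), and their part in the Areg value was not tested.

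Of the receptors, Erbb2, the partner without a known ligand, had the largest layer difference. It ranged from 76.2 to 103.5 normalized counts in epithelium (median 95.7) and was 2.63, 5.83, 10.2, 5.68 and 7.45 in the stroma of O1, O2, O3, Y1 and Y3. The log2 fold change was 3.85 ± 0.26 (adjusted p = 1.13e-10). Erbb3, the kinase-impaired partner, ranged from 52.3 to 66.4 in epithelium (median 61.5) and was 2.86, 6.29, 12.4, 12.8 and 10.95 in the same stromal samples, with a log2 fold change of 2.73 ± 0.27 (adjusted p = 3.41e-08). Both receptors were lowest in the stroma of O1, and neither overlapped between the layers.

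Egfr, the receptor for all 6 ligands, differed less between the layers. It ranged from 48.8 to 76.2 normalized counts in epithelium (median 64.3). In stroma it was 15.8, 31.3 and 38.3 in the aged mice O1, O2 and O3, and 15.7 and 18.0 in the young mice Y1 and Y3. The lowest epithelial sample was still above the highest stromal one, and the log2 fold change was 1.39 ± 0.21 (adjusted p = 1.31e-05). Stromal Egfr was 20.7% to 67.6% of the epithelial level of the same mouse, whereas the summed keratinocyte markers were 0.113% to 0.928% of it. The corresponding share was 4.56% to 20% for Erbb3 and 2.55% to 10.6% for Erbb2, above that of the summed keratinocyte markers in 5 of 5 mice for each receptor. Krt4 and Krt13, abundant keratins of differentiated cells, weigh most in that sum. Trp63, a basal cell factor of the same list, kept 4.28% to 9.82% of its epithelial level in stroma. The share of Egfr was above that of Trp63 in 5 of 5 mice, and those of Erbb2 and Erbb3 in 4 of 5 each. The shares of Egf, Tgfa, Hbegf, Btc and Erbb4 were also above that of the summed markers in 5 of 5 mice. Those of Areg and Ereg were above it in 3 of 5. The part of keratinocytes in the stromal receptor values was not tested.

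Erbb4, a receptor for neuregulins, betacellulin and HB-EGF, was scarce in both layers. It was at most 0.692 normalized counts in epithelium, with 3 of 9 samples at 0 (median 0.0909). In stroma it was 0.933, 0.329 and 0.153 in O1, O2 and O3, from 16 counts or fewer, and 3.15 and 2.40 in Y1 and Y3, from 61 counts each. The layers overlapped, and the call of lower Erbb4 in epithelium (log2 fold change -2.40 ± 0.80, adjusted p = 0.0146) depended on the young stroma, since it was -1.68 ± 0.87 without mouse Y1 (adjusted p = 0.118). In the 10 samples from mice that gave both layers, it was -1.82 ± 1.05 with mouse as a replicate block (adjusted p = 0.181), and without the block -2.24 ± 0.91 (adjusted p = 0.0528).

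**Figure D2:**
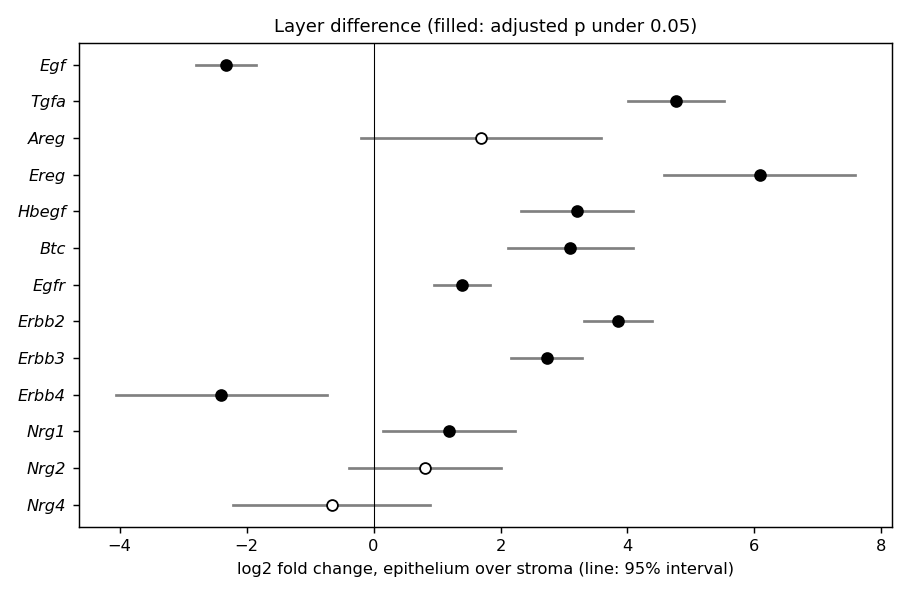
Log2 fold change of epithelium over stroma for the 10 members and for Nrg1, Nrg2 and Nrg4, with 95% intervals from the fit over all genes. Filled circles had an adjusted p under 0.05. The values run from -2.40 for Erbb4 to 6.09 for Ereg, and the interval of Areg spans 0.

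Levels of different genes were compared per kilobase of exon. In epithelium the order of mean normalized counts per kb was Erbb2 at 17.6 ± 1.96 (SD, n = 9), Erbb3 at 9.99 ± 0.81, Ereg at 5.61 ± 1.85, Egfr at 5.53 ± 0.71, Tgfa at 5.12 ± 0.52 and Hbegf at 3.41 ± 0.84. Areg followed at 1.23 ± 0.86, then Btc at 1.19 ± 0.48, Egf at 0.512 ± 0.109 and Erbb4 at 0.0191 ± 0.0220. Only the steps from Erbb2 to Erbb3 and from Egf to Erbb4 separated all samples of one gene from all samples of the next. The ranges of each other neighbouring pair overlapped. The place of Ereg also differed between the ages in these samples, although its level was not called by age by edgeR. Its mean per kb was 4.22 in aged epithelium, where Egfr had 5.86 and Tgfa 5.14. In young epithelium it was 7.35, where they had 5.11 and 5.09.

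In stroma the order per kb began with Egf at 2.64 ± 0.96 (SD, n = 5), Egfr at 2.11 ± 0.91, Erbb3 at 1.51 ± 0.72 and Erbb2 at 1.22 ± 0.53. The other members had means between 0.0770 for Ereg and 0.359 for Areg, and each of these rested on 1 library, since the mean was 0.0142 for Ereg without O2 and 0.0861 for Areg without O3. All neighbours in this order overlapped between samples.

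As a share of the summed normalized counts per kb of the 6 ligands, Ereg made up 32.3% ± 7.02 (SD, n = 9) in epithelium, Tgfa 30.4% ± 4.64 and Hbegf 20.03% ± 4.44. Areg, Btc and Egf made up 7.32%, 6.90% and 3.09%. The leading ligand differed by age in these samples, although the level of Ereg was not called by age by edgeR. The share of Ereg was 23.3% to 30.7% in aged and 37.1% to 42.5% in young epithelium. Ereg lay below Tgfa in 4 of the 5 aged mice, all but OM8, and above it in 4 of the 4 young mice. In OM8 Hbegf led, at 28.9% against 26.1% for Ereg and 24.2% for Tgfa. Hbegf was also above Ereg in OF5, at 24.3% against 23.3%. In stroma Egf made up 70.2% ± 24.6 (n = 5), with 97.2% in O1 and 30.9% in O3. In O3 the share of Areg was 40.1%. These are shares of transcripts and not of protein.

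Among the 4 receptors, Erbb2 made up 53.1% ± 2.60 (SD, n = 9) of the epithelial pool, Erbb3 30.2% ± 1.99, Egfr 16.7% ± 1.72 and Erbb4 0.0601% ± 0.0727. The epithelial proportions varied little from mouse to mouse. In stroma Egfr made up 57.0%, 55.8% and 45.6% in O1, O2 and O3 and 28.5% and 31.6% in Y1 and Y3, while Erbb3 made up 19.4%, 21.1% and 27.8% in the aged and 43.9% and 36.2% in the young samples. Neither share overlapped between ages. The share of Erbb4 did not either, at 3.08%, 0.536% and 0.167% in the aged and 5.23% and 3.86% in the young samples, while that of Erbb2 did. Shares of one pool depend on each other. Among all genes tested by age in stroma, 20.5% did not overlap in level. With 3 against 2 samples the smallest two-sided p of an exact permutation test is 0.2, so that test could not pass, and no other test of these shares was run.

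**Figure D3:**
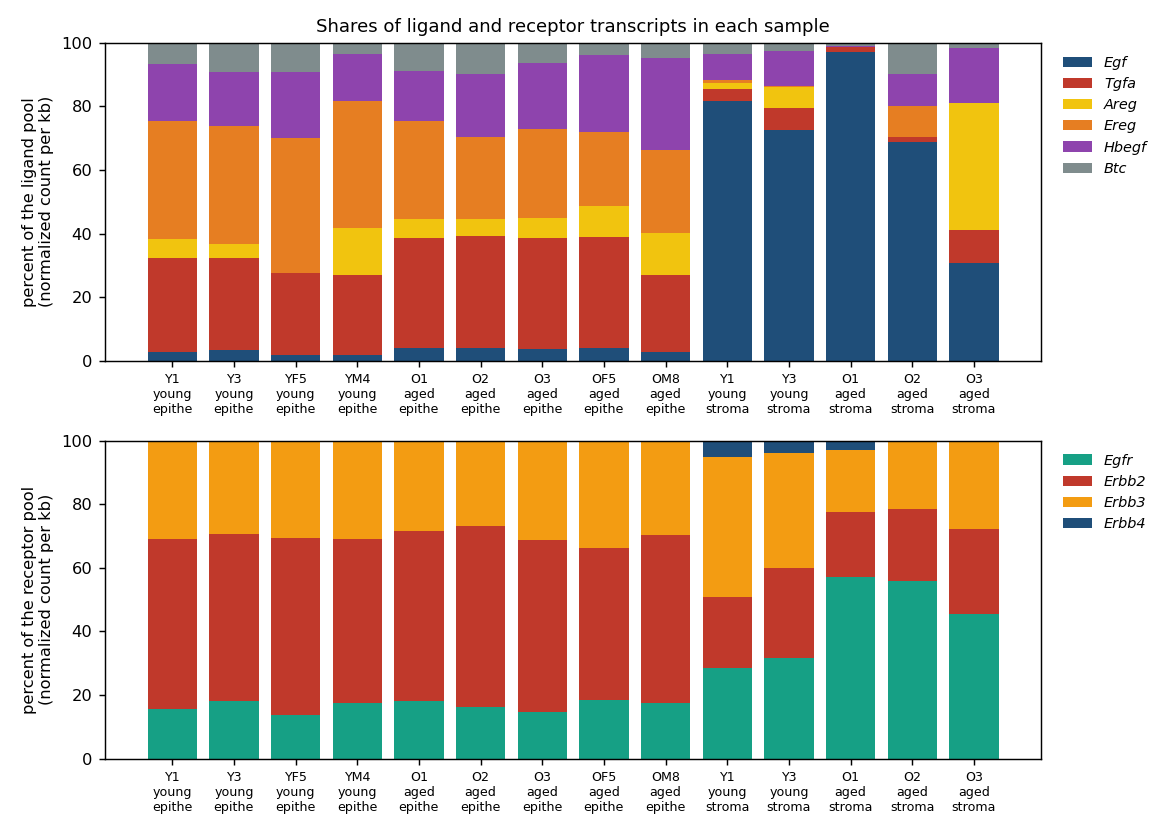
Share of each gene in the ligand pool (top) and in the receptor pool (bottom) of each sample, in percent of the summed normalized count per kb. Egf takes 30.9% to 97.2% of the stromal ligand pool, and Erbb2 takes 47.5% to 56.7% of the epithelial receptor pool.

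The comparison of aged with young epithelium asked whether the ligands or receptors of the peeled sheet change with age. None of the 9 members tested was called by edgeR, where 0.0126% of the 15859 genes tested (2 genes) were called, and Erbb4 did not pass the filter on low counts. Ereg was the only member with an unadjusted p under 0.05, among 509 genes in all, and the only one called by DESeq2, among 28 genes in all. The median log2 fold change of aged over young was 0.08 for the 9 members and 0.00 for all genes.

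Ereg separated the ages in epithelium. It was 27.3 and 25.7 normalized counts in Y1 and Y3 and 37.1 and 31.2 in YF5 and YM4. In the aged mice it was 19.1, 18.6 and 16.8 in O1, O2 and O3 and 13.8 and 18.9 in OF5 and OM8. All 5 aged mice lay below all 4 young mice, a separation that 1.31% of all genes tested showed in either direction.

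The log2 fold change of Ereg was -0.75 ± 0.14 (edgeR, SE; unadjusted p = 4.63e-05), which ranked 6 among 15859 genes and gave an adjusted p of 0.122. The adjusted p was 0.000383 by DESeq2 and 0.0127 without a filter on low counts, and from 0.1 to 0.587 in the other alternatives. An exact permutation test on the log2 levels of the 9 mice, run for each of the 10 members without adjustment, gave Ereg a two-sided p of 0.01587, the smallest that 5 against 4 can give, which restates the separation. The value was -0.56 ± 0.12 (adjusted p = 0.432) in the 5 mice with both layers alone and -1.02 ± 0.30 (adjusted p = 0.484) in the 4 mice with epithelium only alone. The 8 keratinocyte markers also had negative log2 fold changes by age in epithelium, from -0.35 to -0.09 with a median of -0.23, none at an unadjusted p under 0.05. Of the 6 fibroblast markers, 3 had an unadjusted p under 0.05, and the median was -0.33. The part of these cells in the Ereg value was not tested.

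No other member had an unadjusted p under 0.05 in the fit by age in epithelium. Egf was 6.71, 7.57, 6.17, 6.55 and 5.42 normalized counts in O1, O2, O3, OF5 and OM8 and 5.24, 6.31, 4.17 and 3.81 in Y1, Y3, YF5 and YM4, and the groups overlapped at O3 and OM8. Its log2 fold change of aged over young was 0.31 ± 0.20 (edgeR, adjusted p = 1), while the exact permutation test, which has no covariate, gave a two-sided p of 0.04762 without adjustment. The 95% interval was -0.26 to 0.26 for Tgfa, -0.17 to 0.34 for Erbb2, -0.18 to 0.33 for Erbb3 and -0.11 to 0.44 for Egfr. Changes within an interval are compatible with these data at the 95% level. Changes of such sizes, and larger ones, could go uncalled. In the same fit a log2 fold change of -0.75 for Ereg was not called. The intervals of Areg (-0.82 to 1.09) and Btc (-0.83 to 0.32) were wider, and that of Hbegf was -0.29 to 0.41.

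**Figure D4:**
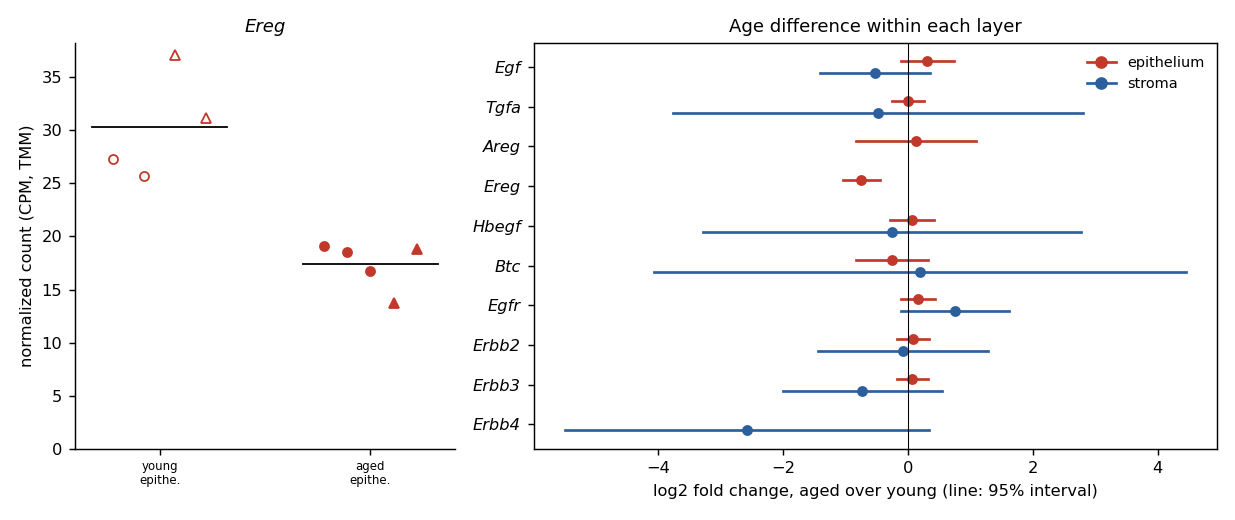
Left, normalized counts of Ereg in young (open) and aged (filled) epithelium, with circles for mice with both layers, triangles for mice with epithelium only and bars for group means. Right, log2 fold change of aged over young with 95% intervals for the members tested in epithelium (red) and stroma (blue). Aged Ereg lies between 13.8 and 19.1 and young Ereg between 25.7 and 37.1.

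In stroma, 8 members passed the filter by age and Areg and Ereg did not. None was called by edgeR and none had an unadjusted p under 0.05, where 0% of the 21323 genes tested were called, 776 had an unadjusted p under 0.05 and DESeq2 called 2 genes. The median log2 fold change of aged over young was -0.36 for the members and -0.01 for all genes. Erbb4 was the only member whose groups did not overlap, at 0.933, 0.329 and 0.153 normalized counts in the aged and 3.15 and 2.40 in the young mice, and 20.5% of all genes tested did not overlap.

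The log2 fold change of stromal Erbb4 was -2.58 ± 1.3 (edgeR, adjusted p = 1), and -3.50 ± 1.06 without O1. Egfr, at 15.8, 31.3 and 38.3 in aged and 15.7 and 18.0 in young stroma, overlapped at O1 and had 0.75 ± 0.39 (adjusted p = 1). Erbb3, at 2.86, 6.29 and 12.4 in aged and 12.8 and 10.95 in young stroma, overlapped at O3 and had -0.72 ± 0.57 (adjusted p = 1), which was -1.40 without O3. The 4 Schwann cell markers, a cell type in which ERBB3 is well known, summed to 10.7, 21.5 and 36.1 in aged and to 61.8 and 44.7 in young stroma. The adipocyte list had a median log2 fold change of -0.75 by age in stroma, with 2 of 4 genes at an unadjusted p under 0.05. Higher in aged stroma was the smooth muscle list, at 940.9, 2051 and 815.6 in aged and 302.6 and 599.9 in young stroma. The keratinocyte list summed to 53.3, 450.3 and 224.3 in aged and to 75.03 and 46.6 in young stroma, with a median of 2.11 and 5 of 8 genes at an unadjusted p under 0.05. The keratinocyte list was thus highest in O2 and O3, the samples in which Egfr was highest, although Egfr was higher in O3. Other lists rose from O1 to O2 to O3, as Egfr did. The fibroblast list summed to 415.2, 873.3 and 1031, the macrophage list to 24.3, 50.7 and 78.7 and the endothelial list to 22.6, 46.3 and 77.4. In Y1 and Y3 these lists summed to 746.0 and 704.6, to 33.9 and 36.4, and to 37.6 and 65.0. The part of these cells in the receptor values was not tested.

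Whether the age effect differed between the layers was tested next. In the 10 samples from mice that gave both layers, all 10 members were tested for an interaction of age and layer and none was called, as was 0% of the 22771 genes tested, with 979 at an unadjusted p under 0.05 and 62 called by DESeq2. The interaction, as the age effect in epithelium minus that in stroma, was -2.56 ± 1.64 for Ereg (95% interval -6.17 to 1.05) and 2.63 ± 1.74 for Erbb4 (-1.20 to 6.47) on the log2 scale, both with an adjusted p of 1 by edgeR. The stromal arm of Ereg rests on few counts, so that a layer difference in its age effect was not detectable in these samples.

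Of the remaining ERBB ligands, Epgn and Nrg3 were scarce, and Nrg2 had the highest mean level in both layers. Per kb of exon, the mean of Nrg2 was 1.15 in epithelium, where Btc had 1.19. In stroma it was 0.674, where Areg had 0.359, and stromal Nrg2 ranged from 0.0411 normalized counts in O2 to 5.70 in O3. Epgn, which lies beside Ereg and encodes epigen, was at most 0.833 normalized counts in epithelium and 0.0394 in stroma, and Nrg3 was at most 0.196 in epithelium and 2.51 in stroma. Both failed the filter in the layer comparison. Nrg1, a ligand of ERBB3 and ERBB4 with a large role in nerve and heart, was called higher in epithelium (log2 fold change 1.19 ± 0.50, adjusted p = 0.047), with 1.70 to 4.01 normalized counts there and 0.0822 to 1.87 in stroma. Leaving out 1 mouse at a time ended that call for 7 of the 9 mice, all but O3 and YM4, and it did not hold with the replicate block (1.38 ± 0.72, adjusted p = 0.142). Nrg2 (0.81 ± 0.57, adjusted p = 0.237) and Nrg4 (-0.66 ± 0.74, adjusted p = 0.47) were not called, although Nrg2 was without O3 (1.55 ± 0.57, adjusted p = 0.0286). No ERBB ligand outside the members was called by age in either layer.

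The 7 sheddases and their partners, which release the ligands, were split between the layers, with 3 called higher and 3 lower in epithelium and a median log2 fold change of 0.27. Over all genes tested, 26.1% were called higher and 30.1% lower. Adam9, a metalloprotease, was 12.1 to 20.7 normalized counts in epithelium and 22.8 to 29.1 in stroma (log2 fold change -0.67 ± 0.16, adjusted p = 0.0012). Of 24 signal transducers, 10 were called higher and 6 lower (3 lower with the replicate block), with a median of 0.25, against the same shares over all genes. Pik3cb, a catalytic subunit of PI3 kinase, was 23.8 to 40.8 in epithelium and 2.39 to 6.81 in stroma (3.11 ± 0.25, adjusted p = 1.68e-09). Mapk3, which encodes ERK1, and Gab1, a docking protein downstream of EGFR, were also higher in epithelium, by 1.75 ± 0.19 and 1.74 ± 0.18 on the log2 scale. Akt2 (-1.95 ± 0.14) and Ptpn11, which encodes the phosphatase SHP2 (-1.68 ± 0.18), were lower.

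Of 15 feedback inhibitors, 6 were called higher and 5 lower in epithelium, with a median log2 fold change of 0.33. The shares over all genes were 26.1% higher and 30.1% lower. Dusp5 and Dusp4 both encode phosphatases of MAP kinases. Dusp5 was 5.51 to 27.3 normalized counts in epithelium and 0.583 to 2.05 in stroma (3.71 ± 0.37, adjusted p = 4.23e-08), while Dusp4 was at most 0.346 in epithelium and 5.93 to 8.75 in stroma (-5.14 ± 0.40, adjusted p = 1.22e-09). Lrig3 was higher (2.33 ± 0.19) and Lrig1, which promotes the degradation of ERBB receptors, lower (-0.78 ± 0.16). Spred2 was higher (1.23 ± 0.20) and Spry2, which encodes another inhibitor of RAS to MAP kinase signaling, lower (-1.20 ± 0.34).

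Of 9 transcriptional targets tested among the 10 listed, 5 were called higher and 2 lower in epithelium (1 lower with the replicate block and 1 without Y3), with a median log2 fold change of 0.96. The shares over all genes were 26.1% higher and 30.1% lower. Myc, a driver of cell growth, was 12.8 to 28.8 normalized counts in epithelium and 2.33 to 6.35 in stroma (2.30 ± 0.26, adjusted p = 3.13e-07). Phlda1 was also higher (0.96 ± 0.23, adjusted p = 0.00115). Etv5, an ETS factor, was lower (-1.54 ± 0.26, adjusted p = 5.13e-05). In neither layer was any gene of these lists called by age, and the medians of the 4 lists by age ranged from -0.02 to 0.04 in epithelium and from -0.04 to 0.03 in stroma.

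**Figure D5:**
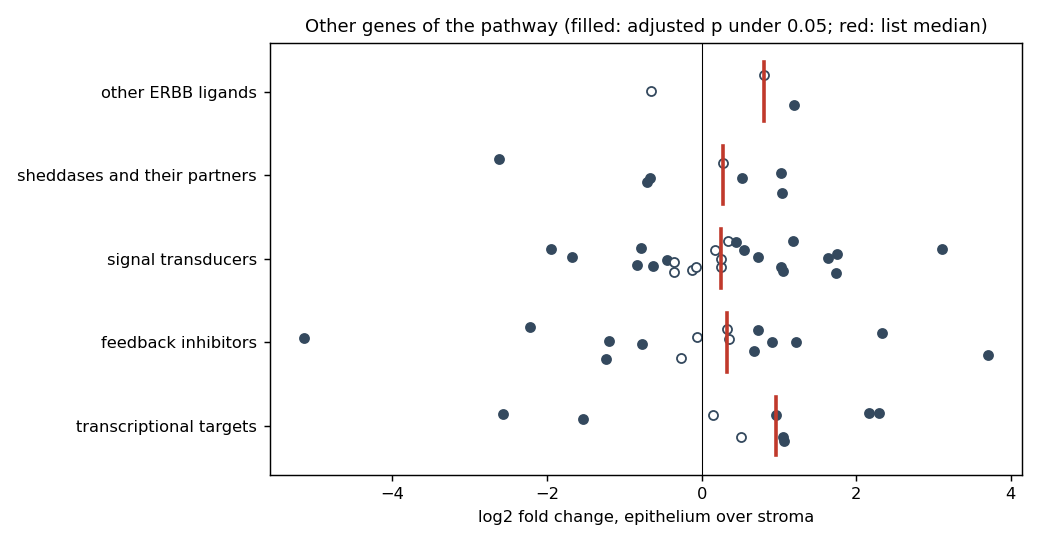
Log2 fold change of epithelium over stroma for the genes tested in each of 5 lists of the pathway. Each circle is a gene, filled where its adjusted p was under 0.05, and the red line is the list median, which runs from 0.25 for signal transducers to 0.96 for transcriptional targets.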

How the data were processed

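Bulk RNA-Seq of peeled epithelium and stroma was analysed. The authors aligned reads to GRCm38.p6 with Rsubread, counted them per gene with featureCounts and deposited whole-number counts without normalization. The annotation release and the settings for strand and multiply mapping reads are not given in the sources used here. Groups and mice were taken from the labels.

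Counts were tested in R 4.3.3 with edgeR 4.0.16 (TMM, filterByExpr with a minimum count of 10, robust glmQLFit), with Benjamini-Hochberg adjustment over all genes tested and a threshold of 0.05. The layer fit used all 14 samples. The age fit in epithelium used 9 samples, with a covariate for whether the mouse gave both layers or epithelium only, that in stroma 5 samples, and the interaction 10 samples. SE is the log2 fold change divided by the square root of F. Permutation tests used scipy 1.17.1 on log2 of the normalized count plus 0.5. The procedure was tested on simulated data. Alternatives were DESeq2 1.42.0, other filters, normalization, covariates and sample subsets, and each mouse left out.

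Layers of the same mouse are paired by animal. The correlation of their deviations from the group means was 0.0422 to 0.141. A fit with mouse as a replicate block was the alternative.

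The members and gene lists were chosen with earlier results of these data known. Named were all members, the other ERBB ligands and, of each other pathway list, up to 3 called genes per direction with the largest log2 fold change and no overlap. Counting intervals and floors cover counting error only.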

Additional observations from a re-analysis of the deposited data

Results flagged for a closer look

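Of 40 groups of 4 to 10 samples examined for a sample far from the others, 3 held one, and chance gives about 1 in 20 such groups. In stroma, Ereg was highest in O2, at 1.356 normalized counts (33 counts), against 0 to 0.155 in the other 4 samples. In stroma, Hbegf was lowest in O1, at 0.05833 normalized counts (1 count), against 1.70 to 3.02. In aged epithelium, Erbb2 was lowest in OF5, at 78.21 normalized counts, against 95.7 to 103.5.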

How the results depend on the processing

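Between the layers, the 8 members whose groups did not overlap kept their direction and their call in every alternative in which they passed the filter. With at least 10 counts in every sample, 4 members were tested and called, 3 higher and 1 lower in epithelium. The number called lower was 1 in the 10 samples of the mice giving both layers, with and without the replicate block (paired by mouse), and 1 to 2 when each mouse was left out. Erbb4 had too few counts to be tested without O1 or Y3. Of the other ERBB ligands, 2 were called higher and 1 lower without a filter, and 0 higher with upper quartile normalization, the stricter filter, age as a covariate, and the 10 samples with or without the block. Leaving out each mouse gave 0 to 2 higher and 0 to 1 lower, with 2 and 1 without O3. Counts called lower became 1 for sheddases without a filter, 2 for feedback inhibitors and 0 for targets with the stricter filter, and 3 for transducers and 1 for targets with the block, and were 1 to 2 for targets when each mouse was left out, 1 without Y3. The block changed no other call of a member.

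By age in epithelium, 1 member (Ereg, lower) was called by DESeq2, among 28 genes, and 1 without a filter, among 36 of 46496 genes, and none in the other alternatives. The log2 fold change of Tgfa, near 0, became -0.02 without a filter, -0.01 without the covariate and -0.12 in the 4 mice with epithelium only, and that of Hbegf -0.04 in the 5 mice with both layers. Leaving out each mouse gave -0.05 to 0.07 for Tgfa, -0.12 to 0.43 for Areg, -0.04 to 0.16 for Hbegf and -0.08 to 0.40 for Nrg1. By age in stroma it gave -1.10 to 0.31 for Hbegf, -1.38 to 0.65 for Btc, -0.66 to 0.29 for Erbb2, -1.05 to 0.22 for Nrg1, -0.13 to 1.39 for Nrg3 and -1.21 to 1.19 for Nrg4, none of them called. With 3 against 2 stromal samples, these directions are not settled. The cause of these shifts was not tested. Areg, Erbb4 and stromal Ereg rested on few counts, at most 46 for Areg, 61 for Erbb4 and 33 for stromal Ereg in a sample.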

Other observations

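Over all 14 samples, the genes of the family and pathway whose log2 levels were most like those of Tgfa were Erbb2 (Pearson r = 0.993) and Pik3cb (0.987). Those most like Erbb2 were Tgfa and Pik3cb (0.99), those most like Erbb3 were Erbb2 (0.981) and Tgfa (0.98), and those most like Hbegf were Erbb3 (0.977) and Erbb2 (0.971). Ereg was nearest to Erbb2 (0.955) and Dusp5 (0.95), and Egfr to Mapk3 (0.947) and Erbb2 (0.932). Egf, the member with the opposite layer pattern, was nearest to Ptpn11 (0.968) and Akt2 (0.939). These samples share layers, mice and library depth, so the values are a description of the layer pattern.

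Some members overlap other gene models. Egf overlaps 6330410L21Rik, at a median of 1.22 normalized counts in stroma and 0 in epithelium, and Gm42697, at 0.534 and 0. Erbb2 overlaps Mien1, at a median of 3.44 in epithelium and 1.39 in stroma. Tgfa overlaps Gm43917 and Ereg overlaps Gm19610, both at most 1.25 normalized counts in every sample. How the counting divided reads between them was not tested.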
